A study of Mus musculus with 32 samples.

Results

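The genes described here are 36 genes of the amino acid and stress response directed by the transcription factor ATF4, chosen by name from the 31053 genes of the count files. They comprise 8 regulators of the stress response (Atf4, Atf5, Ddit3, Ddit4, Trib3, Chac1, Sesn2 and Nupr1), 5 enzymes of serine and one-carbon metabolism (Psat1, Phgdh, Psph, Shmt2 and Mthfd2) and 4 enzymes that make other amino acids (Asns, Aldh18a1, Pycr1 and Cth). The list also holds 5 genes of amino acid transporters (Slc7a11, Slc7a5, Slc7a3, Slc3a2 and Slc7a1) and 14 aminoacyl-tRNA synthetases (Aars, Cars, Eprs, Gars, Iars, Lars, Mars, Nars, Sars, Tars, Wars, Yars, Vars and Hars, by their older mouse symbols). All 36 passed the filter on low counts. RNA was measured in E14 mouse embryonic stem cells, a line derived from the blastocyst, grown on gelatin in serum-free N2B27 medium. No genetic change is given in the labels. One course began in 2i, the GSK3 inhibitor CHIR99021 with the MEK inhibitor PD0325901, and the other in 2iL, the same inhibitors with the cytokine LIF. The additives were then withdrawn by a change to plain N2B27. Libraries of the 2i course were made before withdrawal (0 h) and at 12, 24, 36, 48, 60, 72 and 84 h, and those of the 2iL course at 0, 24, 36, 48, 60, 72, 84 and 96 h. Each of the 16 groups had 2 libraries. The labels do not say whether the libraries of a group came from separate cultures, so p-values measure the spread between these libraries, which may be technical. Time in culture cannot be told apart from the time since withdrawal.

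ATF4 is made when translation initiation is slowed by phosphorylation of eIF2α, the work of kinases that sense uncharged tRNA, unfolded protein in the endoplasmic reticulum, low haem or double-stranded RNA. Because translation sets its level, the abundance of Atf4 mRNA is not a measure of ATF4 protein, and no protein was measured here. ATF4 pairs with C/EBP proteins and other bZIP partners on a composite element in many promoters. Its targets supply amino acids, charge tRNA, and feed back on the response through CHOP (encoded by Ddit3) and TRIB3. Mouse embryonic stem cells are known for their need of threonine, which they break down to supply one-carbon units.

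The promoters of the 36 genes were searched on both strands for the composite element in the form TGATGNAA, in windows from 250 bases before to 50 bases after each RefSeq start (GRCm38.p6). Windows were matched for 27 of the 36 genes. The element was found in 11 of these 27 (40.7%), against 4.5% of 27025 genes in the table. By role, it was found in 3 of 8 regulators, 0 of 5 serine and one-carbon genes, 2 of 3 other synthesis genes, 1 of 3 transporters and 5 of 8 synthetases. A match describes letters in a window and not a bound site, and the list includes genes known as ATF4 targets. Under the stricter form TTGCATCA the share was 29.6% of members and 1.0% of genes, and the shorter core TGATG, which lies within the element, was found in 59.3% and 42.9%. The stretches around the element are shown for 9 of the 11 genes that carry it, each of which has its levels or changes given below. They are read 5′ to 3′ along the gene's strand, with the element in capitals.
Trib3, chr2:152344028-152344057, minus strand: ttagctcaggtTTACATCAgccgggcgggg
Chac1, chr2:119351019-119351086, plus strand: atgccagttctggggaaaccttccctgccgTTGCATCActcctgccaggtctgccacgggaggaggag
Nupr1, chr7:126625543-126625610, minus strand: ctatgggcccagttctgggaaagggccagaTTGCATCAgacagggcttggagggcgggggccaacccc
Asns, chr6:7693210-7693262, minus strand: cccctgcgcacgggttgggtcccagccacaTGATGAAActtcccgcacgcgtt
Pycr1, chr11:120643814-120643881, minus strand: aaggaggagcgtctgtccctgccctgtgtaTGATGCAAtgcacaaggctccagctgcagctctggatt
Slc7a11, chr3:50443623-50443709, minus strand: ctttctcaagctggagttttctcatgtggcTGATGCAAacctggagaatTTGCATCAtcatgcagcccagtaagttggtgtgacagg
Aars, chr8:111033700-111033767, plus strand: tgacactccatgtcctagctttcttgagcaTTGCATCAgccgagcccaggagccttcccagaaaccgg
Gars, chr6:55037941-55038000, plus strand: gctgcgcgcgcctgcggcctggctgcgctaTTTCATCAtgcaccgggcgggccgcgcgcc
Tars, chr15:11399659-11399703, minus strand: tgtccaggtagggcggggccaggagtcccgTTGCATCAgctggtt
The stretches show the same core in both orientations. Asns and Pycr1 read TGATG along the gene, and Slc7a11 carries the element once in each orientation. Trib3, Chac1, Nupr1, Aars, Gars and Tars carry the reverse form. The match of Chac1 begins 193 bases before the annotated start, that of Tars 15 bases before it, and that of Trib3 at base 15 of the transcript. Aars has a further match, TTTCATCA, from base 10 of its transcript, which lies outside the stretch shown.

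The 31 libraries used held 1122648 to 3438514 counts (median 1980949), so that a count of 3 corresponded to 0.872 to 2.672 CPM (counts scaled to library depth and normalised between libraries). The members together took 0.407% to 0.734% of the counts. The remaining library, the second of 2iL 36 h, had 7298 counts and was left out, which leaves 1 library in that group. In 4 groups the libraries resembled each other less across genes (Spearman 0.933 to 0.948). The ones taken as standing apart were the first of 2iL 48 h, the second of 2iL 84 h, the first of 2iL 96 h and the second of 2i 12 h. The Spearman value belongs to a pair and does not show which of its libraries departs. The pair at 2iL 24 h came next, at 0.9525. The share of Gm42418, a gene that overlaps a ribosomal RNA repeat, was 29.3% and 36.7% at 2i 12 h against 13.965% and 16.1% at 2i 0 h. It was 23.9% and 24.7% at 2iL 24 h against 8.86% and 10.4% at 2iL 0 h. Its part in the results at those times was not tested. The embryonic stem cell markers Pou5f1, Sox2, Utf1, Epcam and Dppa5a were all detected in each group compared, with a summed level of 251 to 1253 CPM over the libraries. Their sum went from 1196 and 1253 CPM at 2i 0 h to 251 and 287 CPM at 2i 72 h. In the 2iL course it was 831 and 956 CPM at 0 h and 487 and 503 CPM at 96 h. The summed level of 6 naive markers went from 2387 and 2448 CPM at 2iL 0 h to 40.9 and 50.2 CPM at 2iL 96 h. In the 2i course it went from 1195 and 1308 CPM at 0 h to 35.4 and 58.1 CPM at 84 h. At 24 h the naive sum was 113 and 114 CPM in the 2i course and 1099 and 1150 CPM in the 2iL course. The 4 formative markers (Dnmt3b, Fgf5, Otx2 and Pou3f1) summed to 2423 and 2558 CPM at 2i 24 h and to 549 and 596 CPM at 2iL 24 h. The courses thus differed in these marker levels at the same hour. The 3 neural markers (Sox1, Pax6 and Nes) summed to 24.7 to 34.2 CPM in the 0 h libraries, 183 and 237 CPM at 2iL 96 h and 321 and 338 CPM at 2i 84 h. Primitive endoderm markers summed to at most 11.7 CPM, trophectoderm markers to at most 37.9 CPM and fibroblast markers to at most 26.3 CPM. The part of these cell states in the results was not tested. In such bulk samples fewer cells expressing a gene and less RNA per cell cannot be told apart.

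Before withdrawal, 8 members stood lower in 2i than in 2iL and 2 stood higher, where 4.24% and 3.75% of the 12556 tested genes were called lower and higher (edgeR quasi-likelihood test, adjusted p under 0.05, here and throughout). The members' median log2 difference was -0.42, against 0.01 for tested genes. Those lower were the regulators Ddit3, Trib3 and Nupr1, the serine and one-carbon genes Psat1, Psph and Shmt2, the transporter gene Slc7a1 and the synthetase gene Tars. Ddit4 and Sesn2 were higher. The calls for Nupr1, Trib3 and Slc7a1 were kept under every alternative tried, and each of the other 7 was lost without at least 1 of the 4 libraries. The count of 10 became 6 without either 2iL library. It was 22 without the 4 libraries that stood apart, which belong to other groups and enter through the shared estimate of spread.

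At 12 h of the 2i course 4 members had risen (Atf4, Nupr1, Cth and Cars) and 2 had fallen (Ddit4 and Phgdh), with 5.43% and 5.37% of tested genes called up and down. At 24 h 18 of 36 had risen and Asns alone had fallen, with 8.47% and 8.86% of tested genes called. The members' median log2 change at 24 h was 0.61, against -0.02 for tested genes, and 31 of the 36 changes were positive. The 18 that rose were 5 regulators, 4 serine and one-carbon genes, 2 transporter genes and 7 synthetase genes. The rises of Atf5, Nupr1, Trib3, Mthfd2, Tars and Gars were kept under every alternative. The count of 19 rests in part on single libraries, being 10 without the first 0 h library, 11 without the second and 6 without the second 24 h library. That 24 h library had the largest share of member counts among the 31 (0.734%, against 0.611% in its partner), and its share of Gm42418 was 11.011% against 17.1%. The 12 h count of 6 was 3 without either 0 h library.

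The comparisons at 48, 60 and 84 h and at 2iL 96 h were chosen after the data were seen. At 48 h of the 2i course 7 members had risen (Atf5, Ddit3, Ddit4, Trib3, Chac1, Mthfd2 and Tars) and 2 had fallen (Asns and Slc7a1), with 10.2% and 9.99% of tested genes called up and down. At 60 h 8 had risen (the same regulators with Nupr1, Mthfd2 and Gars) and 3 had fallen (Shmt2, Asns and Slc7a1), with 12.4% and 11.7% called. The 60 h count of 11 was 7 without the second 60 h library. At 48 h the rise of Ddit4 was lost without the first 48 h library and the fall of Slc7a1 without the second. The rise of Mthfd2 was lost without either 0 h library or the first 48 h library, and the rise of Tars without the second 0 h library or either 48 h library. At 60 h the calls of Mthfd2 and Gars were lost without any 1 of the 4 libraries, that of Nupr1 without the first 0 h library or either 60 h library, and that of Shmt2 without the second 0 h or second 60 h library.

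By 72 h of the 2i course 4 regulators had risen (Atf5, Ddit3, Ddit4 and Trib3), with 14.1% of tested genes called up. Sesn2, Shmt2, Asns, Slc7a3 and Slc7a1 had fallen, with 14.2% called down. Over all members the shares called up and down lay near or under those of tested genes. None of the 14 synthetases was called at 72 h. None had an unadjusted p under 0.05 in edgeR, and in DESeq2 0 were called and 1 had an unadjusted p under 0.05. At 84 h 3 members had risen (Atf5, Ddit3 and Ddit4) and 9 had fallen, with 16.6% of tested genes called in each direction. Those that fell were Sesn2, Nupr1, Shmt2, Asns, Cth, Slc7a3, Slc7a1, Cars and Mars. Leaving out the second 72 h library lowered the 72 h count from 9 to 5. The 84 h count of 12 was 7 without the second 0 h library or the first 84 h library. The fall of Sesn2 at 72 h was lost under 8 of 11 alternatives, and the rise of Trib3 without the first 0 h or second 72 h library. Slc7a3 lost its call at 72 h without the first 0 h library, without either 72 h library and with DESeq2. Shmt2 lost its call at 72 h without the second 72 h library. The fall of Cth at 84 h was lost under 7 of 11 alternatives.

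At 24 h of the 2iL course 5 members had fallen (Atf4, Ddit3, Trib3, Nupr1 and Asns) and Slc7a3 had risen, with 5.92% and 5.65% of tested genes called down and up. The median log2 change was -0.12 over the members and -0.03 over tested genes, and 16 of the 36 changes were positive. By role it was -0.56 for the regulators, 0.27 for the transporter genes and 0.08 for the synthetases. None of the 14 synthetases was called, and none had an unadjusted p under 0.05 in either edgeR or DESeq2. At 48 h 11 members were called, each of them down, with 14.7% and 14.4% of tested genes called up and down. At 60 h Ddit4 had risen and 14 members had fallen, with 13.8% and 13.9% called. The members' median was -0.32 at 48 h and -0.33 at 60 h, against -0.05 and -0.001 for tested genes.

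The 2iL falls at 60 h took in 7 of the 9 amino acid synthesis genes (Psat1, Psph, Shmt2, Asns, Aldh18a1, Pycr1 and Cth, median of the 9 -1.06). The others that fell were the regulators Atf4, Ddit3, Trib3 and Nupr1, the transporter gene Slc7a1 and the synthetase genes Iars and Mars. At 48 h the 11 were Ddit3, Trib3, Nupr1, Psat1, Psph, Shmt2, Asns, Cth, Slc7a1, Iars and Nars. The falls of Ddit3, Nupr1, Asns and Slc7a1 were kept under every alternative at both times. The 60 h count of 15 was 8 without either 0 h library or the first 60 h library and 9 without the second. Without the first 60 h library the falls of Atf4, Trib3 and Psph were among those lost, and without the second those of Atf4, Trib3, Psph and Cth. Leaving out the first 0 h library lost the same 4, and leaving out the second lost Atf4, Trib3 and the rise of Ddit4. At 48 h the fall of Trib3 was lost without either 0 h library or the second 48 h library, that of Cth without the first 0 h or first 48 h library, and that of Shmt2 without the first 0 h library or either 48 h library. The 48 h count of 11 was 13 without the first 48 h library, which stood apart, and 19 without all 4 that did.

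Later in the 2iL course members were called in both directions. At 72 and 96 h the shares of the members called lay near or under those of all tested genes. At 72 h 6 members had risen (Ddit3, Ddit4, Chac1, Sesn2, Phgdh and Wars) and 5 had fallen (Nupr1, Shmt2, Asns, Cth and Slc7a1), with 14.6% and 14.1% of tested genes called. At 84 h 10 had risen (Atf5, Ddit3, Ddit4, Trib3, Chac1, Sesn2, Phgdh, Mthfd2, Gars and Sars) and 5 had fallen (Nupr1, Shmt2, Asns, Cth and Slc7a1), with 17.6% and 17.2% called. At 96 h 5 had risen (Atf5, Ddit3, Ddit4, Phgdh and Sars) and 7 had fallen (Atf4, Nupr1, Shmt2, Asns, Cth, Slc7a1 and Tars), with 19.5% and 20.1% called. The 24 h count of 6 was 3 without either 0 h library and 2 without the second 24 h library. The 72 h count of 11 was 7 without the first 0 h library or either 72 h library. The rise of Phgdh at 72 h was lost without either 0 h library, either 72 h library or the filter, and with DESeq2. The fall of Cth at 72 h was lost without the first 0 h library or either 72 h library, and with DESeq2. At 84 h the rises of Trib3, Mthfd2, Sesn2, Gars and Sars were lost without the second 84 h library, which stood apart. Trib3 and Gars were also lost without the first 0 h library, Sesn2 without the second, and Sars without either. Without the 4 libraries that stood apart Trib3, Sesn2, Gars and Sars were lost. Sesn2, Gars and Sars were lost also without the filter and with the groups compared alone, and Gars and Sars with the shallow library kept. Among the calls at 24 h, those of Asns and Nupr1 were kept under every alternative.

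Tested directly, the change at 24 h was lower in the 2iL course than in the 2i course for 9 members (Atf4, Atf5, Ddit3, Trib3, Nupr1, Psat1, Mthfd2, Gars and Nars) and higher for Sesn2. Of tested genes 1.29% and 1.79% were called in these directions. Each course is set against its own 0 h libraries, which differed as described above, so a difference in change can go with a difference in starting level. At 72 h the change was lower in the 2iL course for Atf5, Ddit3 and Nupr1 (4.24% called) and higher for Sesn2 and Slc7a3 (5.56% called). None of the 14 synthetases was called at 72 h, and none had an unadjusted p under 0.05 in edgeR or DESeq2. The 24 h count of 10 was 6 without the second 2iL library at 24 h. The 72 h count of 5 was 2 without the first 2i library at 0 h and 3 without the second 2i library at 72 h. The difference of Sesn2 at 24 h (0.88 ± 0.25, adjusted p = 0.0463) was lost under 13 of 15 alternatives.

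With all times of a course tested jointly, 28 members changed in the 2i course (52.3% of tested genes) and 26 in the 2iL course (56.5%). Over the 6 shared times 23 members differed in their change between courses (22.5%). Aldh18a1, Pycr1, Slc7a11, Slc3a2, Iars, Wars, Vars and Hars were not called jointly in the 2i course. The 10 not called in the 2iL course were Slc7a11, Slc3a2, Cars, Eprs, Lars, Mars, Wars, Yars, Vars and Hars.

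**Figure D1:**
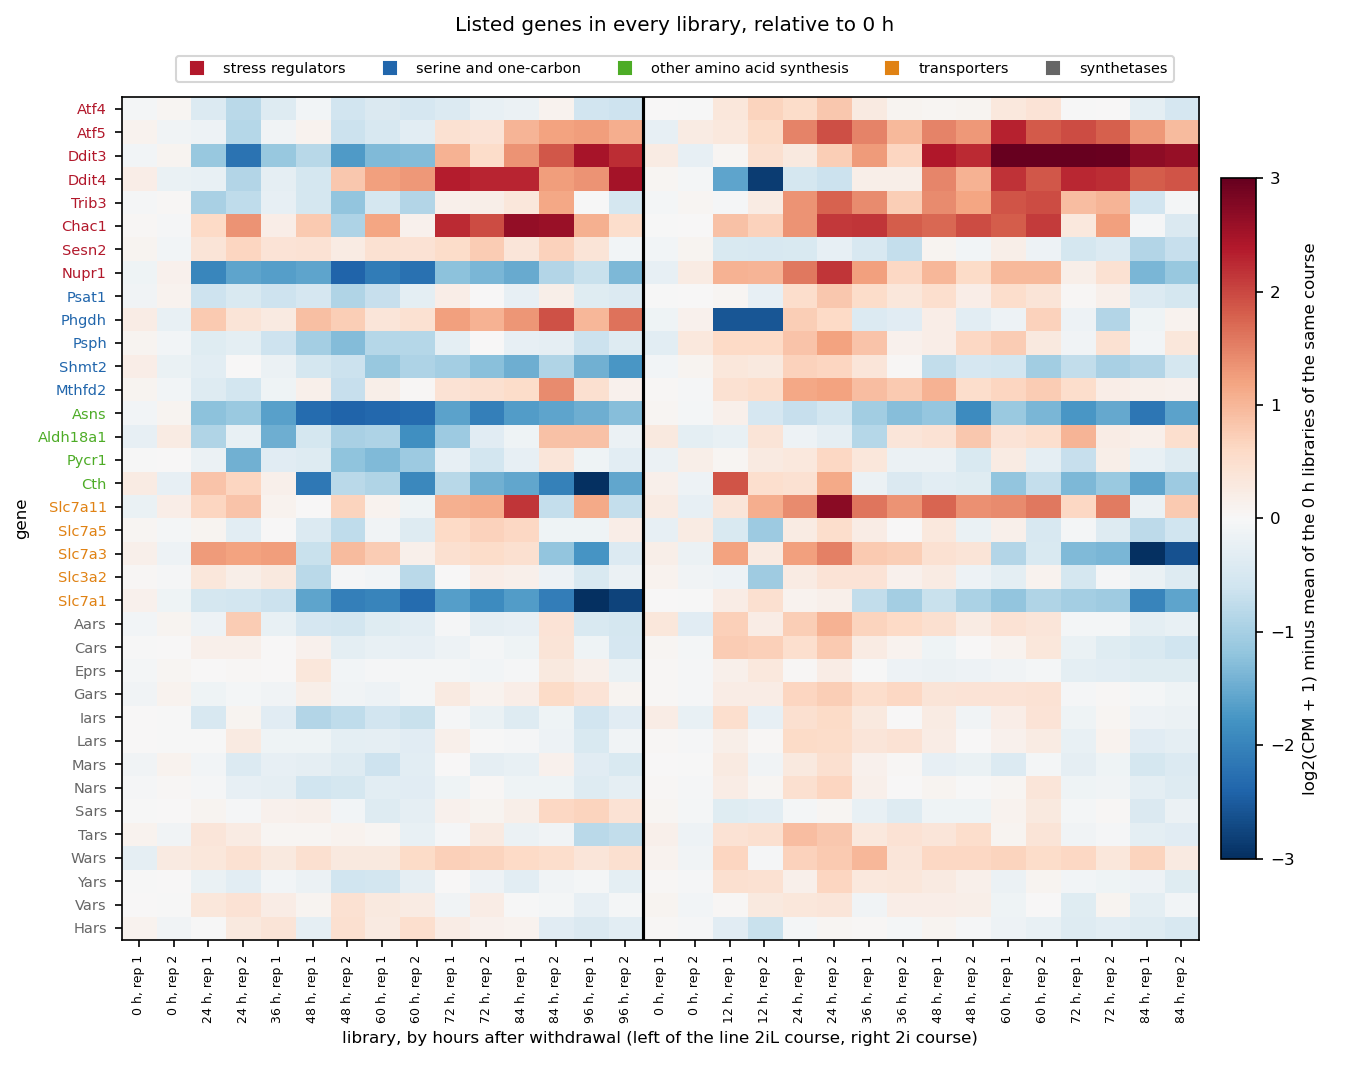
Change of each of the 36 genes (rows, coloured by role) in each of the 31 libraries (columns), as log2(CPM + 1) minus the mean of the 0 h libraries of the same course; colours stop at 3 in either direction. Ddit3 and Ddit4 turn red late in both courses, Asns and Slc7a1 turn blue, and the synthetase rows are the palest.

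**Figure D2:**
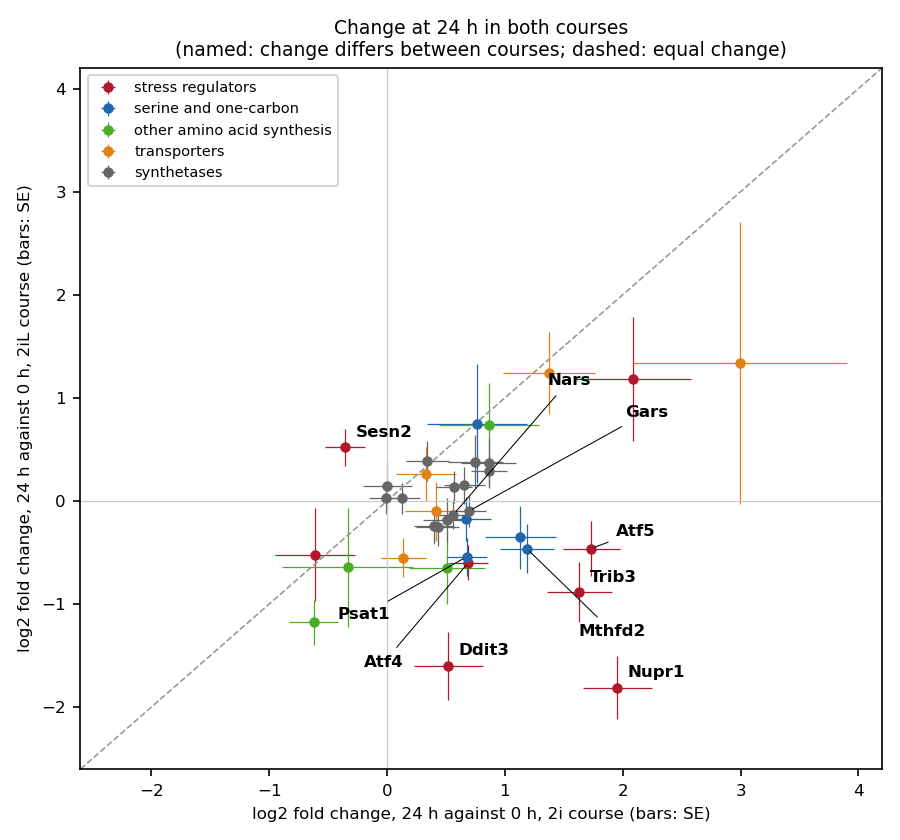
Log2 fold change at 24 h against 0 h in the 2i course (horizontal) and the 2iL course (vertical) for the 36 genes, with standard errors as bars and colour by role. The 10 named genes are those whose change differed between courses, and Nupr1 lies farthest from the dashed line of equal change, at 1.96 in the 2i course and -1.81 in the 2iL course.

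Among the regulators, Atf4 mRNA stood at 874 and 853 CPM at 2i 0 h and at 1170 and 1281 CPM at 2iL 0 h. In the 2i course it was 1090 and 1366 CPM at 12 h, 1266 and 1522 CPM at 24 h, and between 854 and 1145 CPM from 36 to 72 h. The 2iL course had 925 and 694 CPM at 24 h, so the courses exchanged places, and 1087 and 1311 CPM at 84 h. The log2 change at 24 h was 0.69 ± 0.17 (SE, here and for each change below) in 2i (adjusted p = 0.00323) and -0.60 ± 0.17 in 2iL (adjusted p = 0.0172). The difference of -1.29 ± 0.24 was called (adjusted p = 0.000932) and was kept under every alternative. The rise in 2i was lost without the second 24 h library (adjusted p = 0.0934), and the fall in 2iL without either 0 h library or the second 24 h library. The rise at 2i 12 h (0.51 ± 0.17, adjusted p = 0.047) was lost under 7 of 11 alternatives, among them leaving out either 0 h library or the second 12 h library. At the end of the courses Atf4 stood at 704 and 606 CPM (2i 84 h, not called) and at 828 and 801 CPM (2iL 96 h). The latter was a fall of -0.59 ± 0.17 (adjusted p = 0.00542) that was lost without the second 0 h library.

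Atf5, a related bZIP factor, was 44.5 and 63.2 CPM at 2i 0 h, 150 and 204 CPM at 24 h and 267 and 192 CPM at 60 h. The libraries from 24 h on all lay above those at 0 h in the 2i course. The change was 1.73 ± 0.24 at 24 h (adjusted p = 2.62e-06) and 1.89 ± 0.24 at 72 h (adjusted p = 3.92e-07). The 2iL libraries had 74.1 and 62.9 CPM at 0 h, 61.1 and 37.1 CPM at 24 h, and 164 and 146 CPM at 96 h. In that course the rise was called at 84 and 96 h (1.17 ± 0.24 at 96 h, adjusted p = 0.000186) but not at 24 or 72 h. The changes of the courses differed by -2.19 ± 0.36 at 24 h (adjusted p = 0.000212) and by -1.46 ± 0.34 at 72 h (adjusted p = 0.00413), the latter not called without the first 2i 0 h library (adjusted p = 0.0528). Atf5 overlaps Nup62 and Il4i1 on the other strand, and the strand setting of the counting is not given in the sources used here.

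Ddit3, which encodes the CHOP factor, was 25.8 and 18.1 CPM at 2i 0 h and 26.96 and 36.5 CPM at 24 h. It was 53.7 and 34.6 CPM at 36 h, 120 and 106 CPM at 48 h, 194 and 221 CPM at 60 h, 192 and 177 CPM at 72 h, and 145 and 138 CPM at 84 h. The 2iL course went from 46.2 and 52.3 CPM at 0 h to 21.7 and 9.76 CPM at 24 h and was still at 19.15 and 19.49 CPM at 60 h. It then had 103 and 72.9 CPM at 72 h, 127 and 182 CPM at 84 h, and 276 and 231 CPM at 96 h. Both courses ended above their start, but the 2iL course first went below it. The change was 3.05 ± 0.27 at 2i 72 h (adjusted p = 3.25e-10), the largest rise of the 36 genes in that comparison, and 2.36 ± 0.25 at 2iL 96 h (adjusted p = 4.37e-09). The fall at 2iL 24 h was -1.60 ± 0.33 (adjusted p = 0.00125, and 0.0624 without the second 24 h library). The rise at 2iL 72 h (0.84 ± 0.25, adjusted p = 0.0102) was lost without the first 0 h library or the first 72 h library. The change differed between courses at 24 h (-2.12 ± 0.44, adjusted p = 0.00402, and 0.0579 without the second 2iL library at 24 h) and at 72 h (-2.20 ± 0.37, adjusted p = 9.33e-05). Ddit3 and Mars overlap at their 3′ ends on opposite strands, where the reads of this assay fall. Mars itself changed by -0.20 ± 0.18 at 2i 72 h and -0.41 ± 0.17 at 2iL 96 h, neither called.

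Ddit4, encoding an inhibitor of mTORC1 signalling, first fell and then rose in the 2i course. It was 72.3 and 67.6 CPM at 0 h, 22.6 and 8.82 CPM at 12 h, 48.0 and 44.0 CPM at 24 h, and 341 and 327 CPM at 72 h. The change was -2.07 ± 0.42 at 12 h (adjusted p = 0.00121, and -2.97 without the first 12 h library or -1.62 without the second, both called) and 2.25 ± 0.32 at 72 h (adjusted p = 2.04e-06). In 2iL it had 32.05 and 24.4 CPM at 0 h, 148 and 141 CPM at 72 h, and 72.7 and 161 CPM at 96 h. Its rise there was 2.35 ± 0.35 at 72 h (adjusted p = 2.79e-06) and 2.08 ± 0.35 at 96 h (adjusted p = 1.64e-05). The 96 h libraries lay far apart, and the change was 1.36 without the second of them and 2.53 without the first. The libraries at 72 h lay above those at 0 h in both courses, and the change was not shown to differ between them (0.10 ± 0.46, adjusted p = 0.936).

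Trib3, a pseudokinase that restrains the response, carries the element shown above. It was 23.03 and 24.7 CPM at 2i 0 h, 62.7 and 84.5 CPM at 24 h, 91.5 and 95.6 CPM at 60 h, and 15.8 and 23.1 CPM at 84 h. Its rise at 24 h was 1.63 ± 0.27 (adjusted p = 4.68e-05), and neither 84 h library exceeded the higher 0 h library. The 2iL course went from 61.2 and 65.1 CPM to 31.7 and 37.1 CPM at 24 h and had 79.7 and 143 CPM at 84 h. That early fall (-0.88 ± 0.29, adjusted p = 0.0417) was lost without any 1 of the 4 libraries and with DESeq2, whereas the difference between courses at 24 h (-2.51 ± 0.40, adjusted p = 0.00013) was kept under every alternative.

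Nupr1, which encodes a small stress-induced nuclear protein and also carries the element, was 14.7 and 21.4 CPM at 2i 0 h. It had 37.7 and 37.2 CPM at 12 h, 55.4 and 81.9 CPM at 24 h, and 6.31 and 7.51 CPM at 84 h. At 2iL 0 h it stood at 78.7 and 95.2 CPM, at 24 h at 21.7 and 28.3 CPM, and at 96 h at 54.5 and 33.4 CPM. The changes at 24 h were 1.96 ± 0.29 in 2i (adjusted p = 8.14e-06) and -1.81 ± 0.30 in 2iL (adjusted p = 8.85e-05). The difference of -3.77 ± 0.42 (adjusted p = 7.19e-07) was the largest in size among the 10 called at that time. The courses thus changed places between 0 and 24 h without overlap at either time. The falls at 2i 84 h (-1.35 ± 0.40, adjusted p = 0.0105) and 2iL 96 h (-1.01 ± 0.27, adjusted p = 0.00288) were both lost without single libraries. These were the second 0 h library or either 84 h library in 2i, and the second 96 h library in 2iL.

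Chac1, which degrades glutathione, was 3.18 and 3.30 CPM at 2i 0 h, a total of 14 counts, and 9.80 and 17.5 CPM at 24 h. This rise of 2.09 ± 0.49 (adjusted p = 0.00233) was lost without the second 24 h library (adjusted p = 0.103). In 2iL Chac1 had 3.33 and 3.10 CPM at 0 h, 18.8 and 15.4 CPM at 72 h, and 7.79 and 5.06 CPM at 96 h, with a rise of 2.39 ± 0.47 at 72 h (adjusted p = 0.000184). Chac1 was called up at different times, at 24, 36, 48 and 60 h in the 2i course and at 72 and 84 h in the 2iL course. Sesn2, which encodes a leucine-sensing inhibitor of mTORC1, went from 176 and 195 CPM at 2i 0 h to 99.8 and 114 CPM at 84 h, a fall of -0.79 ± 0.18 (adjusted p = 0.000782). In 2iL it went from 109 and 97.5 CPM at 0 h to 151 and 175 CPM at 72 h. That rise (0.65 ± 0.17, adjusted p = 0.00453) was lost without the second 0 h library or the second 72 h library. At 72 h Sesn2 was thus lower than its start in one course and higher in the other, and the difference of 1.13 ± 0.25 was called (adjusted p = 0.0024) under every alternative.

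**Figure D3:**
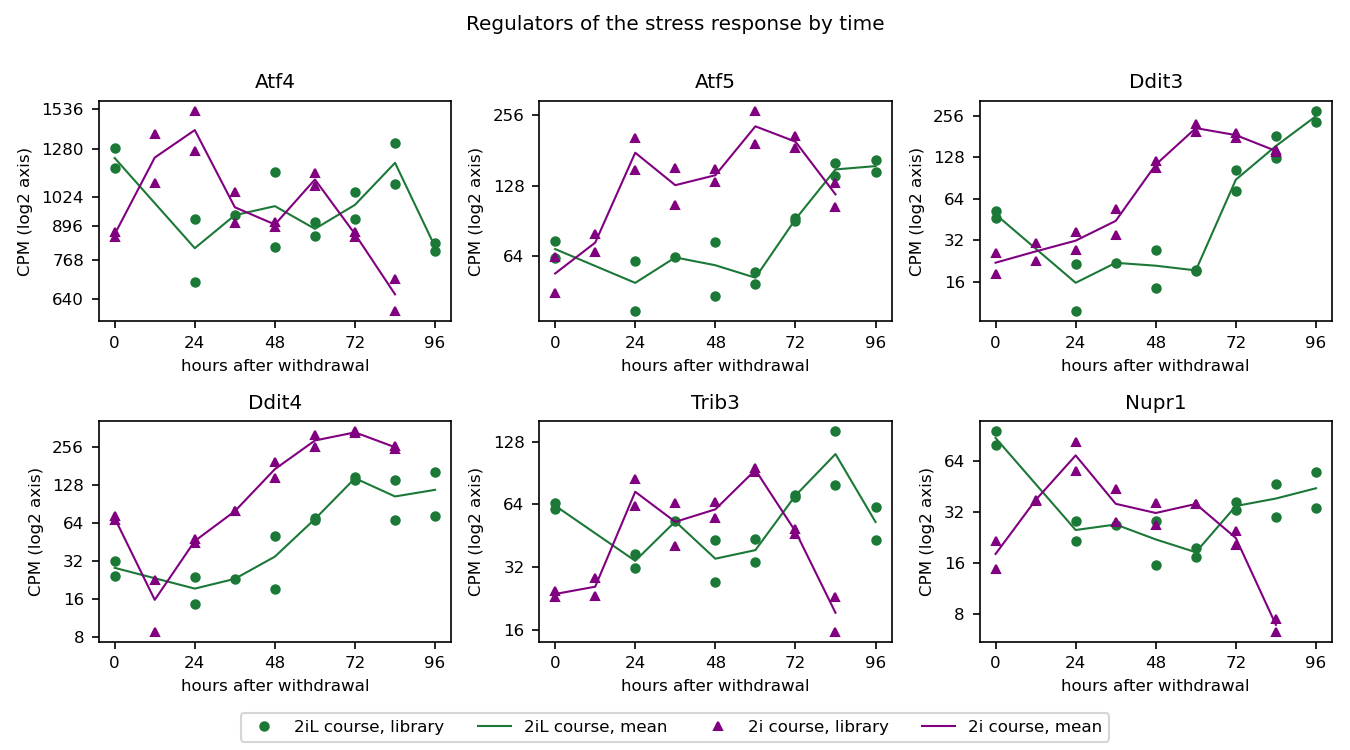
CPM (log2 axis) of 6 regulators against hours after withdrawal; green circles are libraries of the 2iL course, purple triangles those of the 2i course, and lines join group means. At 24 h the 2i libraries of Atf4, Atf5, Trib3 and Nupr1 lie above those of the 2iL course, and Ddit3 reaches over 100 CPM from 48 h in the 2i course and from 84 h in both 2iL libraries.

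Of the 5 serine and one-carbon genes, Psat1, Mthfd2, Psph and Shmt2 were called up at 2i 24 h, against 8.47% of tested genes, and Phgdh was not called. Only the rise of Mthfd2 was kept under every alternative. Psat1, the transaminase of serine synthesis, was 127 and 129 CPM at 2i 0 h, 134 and 108 CPM at 12 h, 185 and 223 CPM at 24 h, and 95.3 and 89.04 CPM at 84 h. From 24 to 72 h all its libraries in this course lay above those at 0 h. The 2iL libraries had 200 and 229 CPM at 0 h, 138 and 156 CPM at 24 h, 247 and 216 CPM at 72 h, and 166 and 161 CPM at 96 h. The rise of 0.68 ± 0.18 in 2i (adjusted p = 0.00714) was lost without the first 0 h library or the second 24 h library. The change of -0.54 ± 0.18 at 2iL 24 h was not called (adjusted p = 0.0502). At 2iL 48 h, with 151 and 115 CPM, and at 60 h, with 133 and 173 CPM, Psat1 was called down (-0.69 ± 0.18, adjusted p = 0.00345, and -0.49 ± 0.18, adjusted p = 0.0369). The call at 48 h was lost without the second 0 h or second 48 h library, and that at 60 h without either 0 h library or the first 60 h library. The difference between courses at 24 h, -1.22 ± 0.25 (adjusted p = 0.00402), was kept under every alternative. Mthfd2, the mitochondrial enzyme of one-carbon units, went from 139 and 132 CPM to 303 and 313 CPM in the first 24 h of the 2i course (1.19 ± 0.23, adjusted p = 0.000295). In 2iL it went from 217 and 192 CPM to 157 and 140 CPM (-0.46 ± 0.23, not called). The 24 h libraries of Mthfd2 thus lay above the 0 h libraries of their course in 2i and below them in 2iL, and the difference was -1.65 ± 0.33 (adjusted p = 0.00229).

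Psph, the last enzyme of serine synthesis, was 7.94 and 12.6 CPM at 2i 0 h and 19.1 and 24.7 CPM at 24 h. This rise (1.13 ± 0.30, adjusted p = 0.00783) was lost without the first 0 h library or the second 24 h library. Shmt2, which splits serine to glycine in mitochondria, was 48.0 and 53.3 CPM at 2i 0 h, 81.8 and 79.4 CPM at 24 h, and 30.1 and 25.3 CPM at 72 h. Its early rise (0.67 ± 0.21, adjusted p = 0.0226) was lost without any 1 of the 4 libraries, with DESeq2 and without the filter on low counts. In 2iL Shmt2 went from 101 and 76.6 CPM at 0 h to 42.8 and 36.5 CPM at 72 h and 31.8 and 25.7 CPM at 96 h. The falls were -1.16 ± 0.21 (adjusted p = 7.4e-05) and -1.64 ± 0.22 (adjusted p = 5.64e-07). At 2i 84 h the fall of Shmt2 (-0.70 ± 0.23, adjusted p = 0.0202) was lost without either 0 h library or the first 84 h library, with DESeq2 and with RLE factors. Mthfd2 had 151 and 149 CPM at 2i 84 h (0.15 ± 0.23) and 283 and 224 CPM at 2iL 96 h (0.31 ± 0.23), and neither change was called.

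Phgdh, the first enzyme of serine synthesis, was near the floor, with 13 counts in all at 2iL 0 h and 21 at 2i 0 h. At 2i 12 h both libraries had 0 counts, at least 3.99-fold lower than at 0 h when 3 counts over the group are taken as the floor, and at 24 h it was 8.82 and 7.87 CPM. The 2iL libraries had 3.33 and 2.21 CPM at 0 h and 6.49 and 10.5 CPM at 96 h, and the ranges did not overlap. The rise at 96 h (1.64 ± 0.47, adjusted p = 0.00588) was lost without the second 0 h library or the second 96 h library.

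Asns, the asparagine synthetase gene and a standard readout of ATF4, fell in both courses. In the 2iL course it was 174 and 194 CPM at 0 h, 78.1 and 84.9 CPM at 24 h, 58.5 CPM in the 1 library at 36 h, 36.3 and 34.1 CPM at 48 h, and 35.3 and 36.4 CPM at 60 h. It then had 59.6 and 43.6 CPM at 72 h, 56.8 and 60.3 CPM at 84 h, and 66.2 and 75.5 CPM at 96 h. The 2i course had 137 and 126 CPM at 0 h, 146 and 92.1 CPM at 12 h, 81.8 and 89.5 CPM at 24 h, 38.7 and 44.6 CPM at 72 h, and 28.4 and 42.4 CPM at 84 h. No library from 24 h on reached a 0 h library of its course. The log2 change was -1.83 ± 0.22 at 2iL 72 h (adjusted p = 5.42e-08) and -1.67 ± 0.23 at 2i 72 h (adjusted p = 1.21e-06). The changes at 72 h were not shown to differ (-0.16 ± 0.32, adjusted p = 0.822). At 60 h the change of Asns was called lower in the 2iL course, a comparison not refitted under the alternatives. Asns was also among those called in the joint test of the 6 shared times. At 2i 24 h, when 18 other members rose, Asns changed by -0.62 ± 0.21 (adjusted p = 0.0352), a call lost without any 1 of the 4 libraries and with DESeq2. Its promoter carries the element printed above.

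Cth, which makes cysteine from cystathionine, was 19.1 and 15.4 CPM at 2i 0 h and 66.6 and 24.5 CPM at 12 h, where the libraries were far apart. That rise (1.43 ± 0.44, adjusted p = 0.0303) was lost without either 0 h library, and was 0.50 without the first 12 h library. Cth in 2iL had 40.8 and 28.4 CPM at 0 h, 61.9 and 53.7 CPM at 24 h (not called), and 1.30 and 10.9 CPM at 96 h. The fall at 96 h was -2.30 ± 0.49 (adjusted p = 0.00037), and -4.67 without the second 96 h library, the higher of the pair. Of the proline synthesis genes, Pycr1 lay between 10.7 and 39.9 CPM and Aldh18a1 between 1.54 and 15.6 CPM over the libraries. Both were called down at 2iL 60 h (Pycr1 -1.27 ± 0.33, adjusted p = 0.00402, and Aldh18a1 -1.53 ± 0.56, adjusted p = 0.038) and at no other time. The call of Pycr1 was lost without the first 60 h library (adjusted p = 0.0665). That of Aldh18a1 was lost with DESeq2 and without either 0 h library or the second 60 h library.

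Slc7a1 and Slc7a3 encode transporters of cationic amino acids such as arginine. Slc7a1 was 169 and 141 CPM at 2iL 0 h and 73.9 and 72.0 CPM at 2i 0 h. It had 48.2 and 41.1 CPM at 2iL 72 h, 18.2 and 21.8 CPM at 2iL 96 h, and 17.7 and 23.6 CPM at 2i 84 h. The courses thus started apart and their last libraries overlapped. The falls were -1.79 ± 0.20 at 2iL 72 h (adjusted p = 1.39e-08), -2.94 ± 0.22 at 2iL 96 h (adjusted p = 3.58e-12) and -1.81 ± 0.23 at 2i 84 h (adjusted p = 1.97e-07), and each was kept under every alternative. Slc7a3 was 109 and 85.2 CPM at 2i 0 h, 229 and 277 CPM at 24 h, 38.1 and 36.5 CPM at 72 h, and 10.1 and 15.02 CPM at 84 h. The 2iL libraries had 104 and 83.7 CPM at 0 h, 228 and 216 CPM at 24 h, 131 and 136 CPM at 72 h, and 26.6 and 69.6 CPM at 96 h. Slc7a3 rose at 24 h in both courses (2i 1.38 ± 0.39, adjusted p = 0.0119, and 2iL 1.24 ± 0.40, adjusted p = 0.037) and had fallen by 2i 84 h (-2.94 ± 0.51, adjusted p = 4e-05). Both 24 h calls were lost with DESeq2 and without either 0 h library of the course. That in 2iL was also lost without either 24 h library, and that in 2i without the second. At 72 h its change was higher in the 2iL course by 1.89 ± 0.60 (adjusted p = 0.0392), a call lost without any 1 of 7 of the 8 libraries.

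Slc7a11, the light chain of the cystine and glutamate exchanger, has the 2 copies of the element shown above. It was at 1.19 and 0.55 CPM at 2i 0 h, 4 counts in all, and at 3.92 and 11.1 CPM at 24 h, with 39 counts. From 36 to 60 h its 2i libraries had 3.68 to 5.17 CPM. The rise at 24 h (2.99 ± 0.90, adjusted p = 0.019) was lost without either 0 h library, without the second 24 h library and with DESeq2. With the groups compared alone Slc7a11 was not tested. Its median over the libraries was 1.95 CPM, and its highest level was that of the second 24 h library. In the 2iL course it stayed at or under 2.6 CPM in all libraries but the first at 84 h, which had 6.25 CPM. Slc3a2, its heavy-chain partner, lay between 29.4 and 84.3 CPM and was called in no comparison, single or joint. Slc7a5, which forms the LAT1 exchanger of large neutral amino acids with Slc3a2, lay between 14.7 and 58.5 CPM. Slc7a5 was called at no single time but in all 3 joint tests (adjusted p = 0.0149 in 2i, 0.00811 in 2iL and 0.00694 for the difference).

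**Figure D4:**
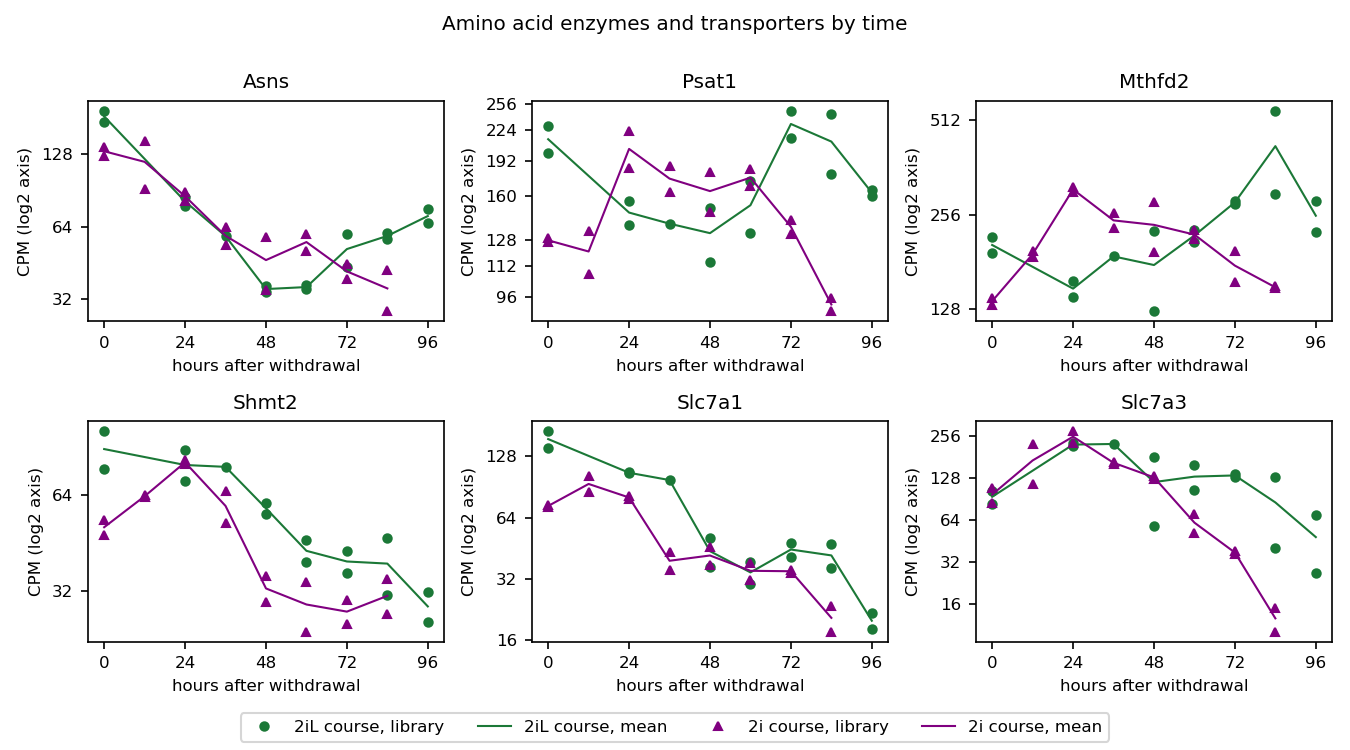
CPM (log2 axis) of 4 enzyme and 2 transporter genes against hours after withdrawal; green circles are libraries of the 2iL course, purple triangles those of the 2i course, and lines join group means. Asns, Shmt2 and Slc7a1 end below their 0 h libraries in both courses, after an early rise of the lines of Shmt2 and Slc7a1 in the 2i course, Psat1 and Mthfd2 part at 24 h, and Slc7a3 goes up to 216 to 277 CPM at 24 h and then down.

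The synthetases load amino acids onto tRNA. At 2i 24 h 7 of 14 were called up (Tars, Aars, Wars, Gars, Cars, Lars and Nars, against 8.47% of tested genes), 13 of 14 changes were positive, and the median was 0.54. Tars, for threonine, was 251 and 203 CPM at 2i 0 h and 431 and 397 CPM at 24 h (0.86 ± 0.15, adjusted p = 9.39e-05). Gars, for glycine, was 276 and 262 CPM and then 424 and 447 CPM (0.69 ± 0.15, adjusted p = 0.00104). The 24 h libraries of both lay above every other library of the 2i course. Aars, for alanine, was 65.5 and 40.7 CPM at 2i 0 h, 87.2 and 108 CPM at 24 h, and 42.3 and 44.0 CPM at 84 h. Its rise at 24 h (0.86 ± 0.24, adjusted p = 0.00957) was lost without the second 0 h library (adjusted p = 0.2) or the second 24 h library (adjusted p = 0.132). Cars, for cysteine, was 113 and 105 CPM at 2i 0 h, 185 and 180 CPM at 12 h, and 155 and 188 CPM at 24 h. It was the one synthetase with a called rise at 12 h (0.75 ± 0.18, adjusted p = 0.00594), lost without the second 0 h library (adjusted p = 0.0638). At 24 h the call of Cars was lost without either 0 h library or the second 24 h library. Those of Wars and Lars were lost without any 1 of the 4 libraries, and that of Nars without the second 24 h library (adjusted p = 0.0719).

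The remaining 7 synthetases had changes at 2i 24 h from -0.004 (Sars) to 0.51 (Iars) and were not called. In the 2iL course Aars was 79.5 and 88.6 CPM at 0 h and 75.8 and 144 CPM at 24 h, a spread between libraries wider than the distance from 0 h. Calls at later times went in both directions. Gars was called up at 2i 60 h (0.43 ± 0.15, adjusted p = 0.0334), and Gars (0.40 ± 0.15, adjusted p = 0.0356) and Sars (0.42 ± 0.15, adjusted p = 0.0314) at 2iL 84 h. The 60 h call was lost without any 1 of the 4 libraries. It was also lost without the filter and with the shallow library kept. Both at 84 h were lost without the first 0 h library or the second 84 h library, and that of Sars also without the second 0 h library. Gars and Sars at 84 h were also lost without the filter, with the shallow library kept, without the 4 libraries that stood apart and with the groups compared alone. In between, Iars (-0.83 ± 0.20, adjusted p = 0.00254) and Nars (-0.56 ± 0.14, adjusted p = 0.00238) were called down at 2iL 48 h and kept under every alternative. At 2iL 60 h Iars (-0.63 ± 0.20, adjusted p = 0.0213) and Mars (-0.48 ± 0.17, adjusted p = 0.0368) were called down. That of Iars was lost without any 1 of the 4 libraries, and that of Mars without the second 0 h library, the first 60 h library or the filter. Tars went from 347 and 298 CPM at 2iL 0 h to 183 and 192 CPM at 96 h, a fall of -0.78 ± 0.15 (adjusted p = 0.000142). Sars, for serine, went from 368 and 379 CPM to 590 and 505 CPM over the same time, a rise of 0.55 ± 0.15 (adjusted p = 0.00414). Both were kept under every alternative. Wars was 24.1 and 34.99 CPM at 2iL 0 h and 48.6 and 46.7 CPM at 72 h, a rise of 0.69 ± 0.23 (adjusted p = 0.023) that was lost without the filter, the first 0 h library or either 72 h library. At 2i 84 h Cars (-0.53 ± 0.19, adjusted p = 0.0292) and Mars (-0.47 ± 0.18, adjusted p = 0.0403) were called down. Both calls were lost without any 1 of the 4 libraries and with DESeq2, which called 0 synthetases at 2i 84 h and gave 2 an unadjusted p under 0.05. The change at 24 h differed between courses for Gars (-0.79 ± 0.21, adjusted p = 0.0328) and Nars (-0.69 ± 0.19, adjusted p = 0.0435). Each of these 2 calls was lost under 9 of 15 alternatives, among them leaving out any 1 of the 4 libraries of the 2i course. In the joint test of the 6 shared times 9 of the 14 differed, with 22.5% of tested genes called. They were Aars, Cars, Gars, Iars, Lars, Mars, Nars, Sars and Tars, and that test gives no direction. Iars was also called lower in the 2iL course at 60 h and Sars higher at 84 h. Neither comparison was refitted under the alternatives.

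**Figure D5:**
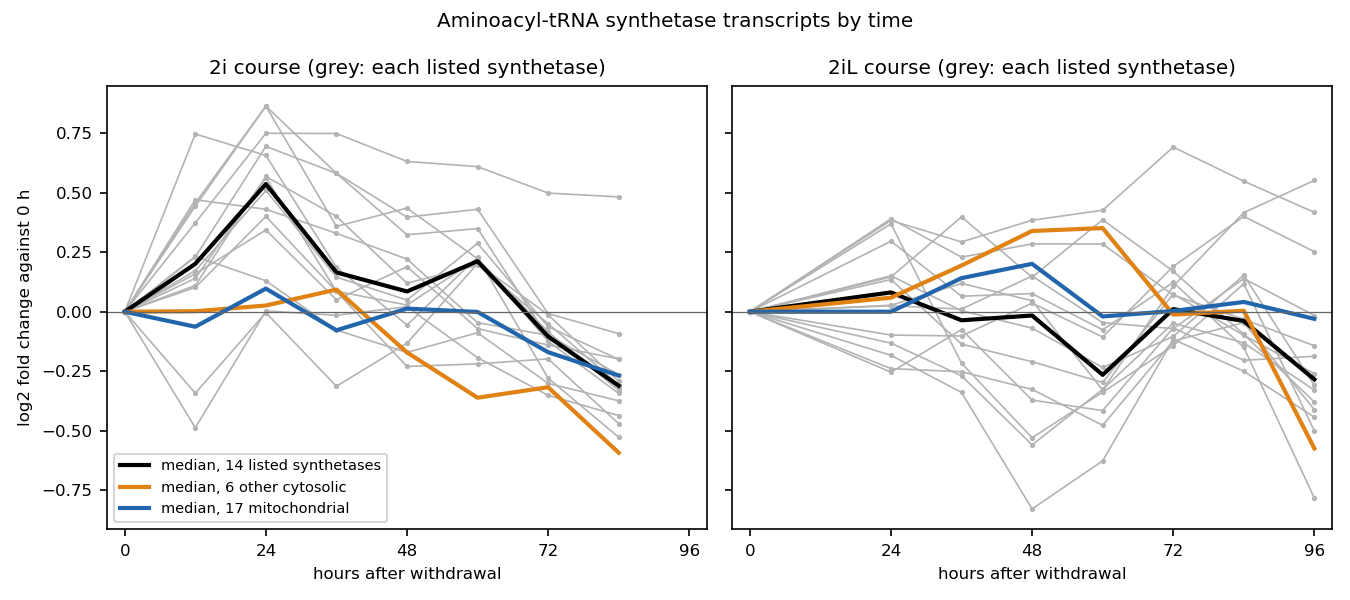
Log2 fold change against 0 h of the 14 listed synthetases (grey lines) with their median (black) and the medians of 6 other cytosolic (orange) and 17 mitochondrial (blue) synthetases, in the 2i course (left) and the 2iL course (right). The black line stands at 0.54 at 2i 24 h, where the orange and blue lines stand at 0.03 and 0.10.

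Members with and without the element can be set side by side. Of the 11 with it, 7 rose and 1 fell at 2i 24 h (median 0.86). Of the 16 with a window and no match 6 rose and 0 fell (median 0.46), with 8.47% and 8.86% of tested genes called up and down. At 2iL 72 h 1 of the 11 rose (Chac1) and 2 fell, and 4 of the 16 rose and 2 fell. Of tested genes 14.6% and 14.1% were called up and down at that time. Ddit3, Ddit4 and Atf5, which had risen by the last time of both courses, had a window without a match. These counts describe the list and were not tested against each other.

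Other genes of the pathway were counted in the same way. Of 20 further response genes 19 were tested, of which 7 rose and 0 fell at 2i 24 h (8.47% and 8.86% of tested genes, median 0.65). At 2iL 24 h 1 rose and 4 fell (5.65% and 5.92%, median -0.60). Those that rose in 2i included Slc38a2, a transporter of small neutral amino acids (1.60 ± 0.17, adjusted p = 4.11e-08), and Gpt2, an alanine transaminase (1.27 ± 0.34, adjusted p = 0.00879). Stc2, a secreted glycoprotein, was 3.97 and 3.30 CPM at 2i 0 h, 11.8 and 17.9 CPM at 2i 24 h (2.02 ± 0.46, adjusted p = 0.00181), and 3.87 and 0.98 CPM at 2iL 24 h. The change at 24 h differed between courses for 6 of the 19, in each case lower in the 2iL course (Gpt2, Vldlr, Stc2, Mthfd1l, Pck2 and Gdf15). The 10 upstream genes include the eIF2α kinases and C/EBP partners of ATF4. Among them Cebpb was called up at 2i 24 h (1.65 ± 0.53, adjusted p = 0.0299). At 2iL 72 h it had risen from 0.83 and 1.33 CPM to 13.1 and 12.8 CPM (3.52 ± 0.52, adjusted p = 3.29e-06). Its 2iL 0 h levels lay at or under the floor of 3 counts, and those at 2i 0 h (1.59 and 2.2 CPM) near it. The size of both rises of Cebpb is therefore uncertain. The other upstream genes are not described here.

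Of 6 cytosolic synthetases outside the list Kars and Farsb rose and Qars fell at 2i 24 h, and of 17 mitochondrial ones 0 rose and 1 fell. These shares stand beside 8.47% and 8.86% of tested genes called up and down. Their medians were 0.03 and 0.10, and that of the 3 scaffold genes of the multisynthetase complex was 0.05. At 2iL 96 h 4 of the 6 cytosolic ones had fallen (Dars, Qars, Farsa and Farsb), against 20.1% of tested genes. Of 10 genes of glycine and folate metabolism 3 fell at 2i 24 h (8.86% of tested genes) and 8 at 2i 72 h (14.2%). Among them Tdh, the threonine dehydrogenase, went from 773 and 693 CPM at 2i 0 h to 11.7 and 11.2 CPM at 72 h (-5.99 ± 0.32, adjusted p = 4.41e-15). Of 10 genes of endoplasmic reticulum stress 3 rose at 2i 24 h (Hspa5, Herpud1 and Xbp1, against 8.47%) and 2 at 2iL 24 h (Hspa5 and Calr, against 5.65%). Of 7 NRF2 targets, a list that shares Slc7a11 with the members, 4 rose at 2i 24 h and 4 fell at 2i 72 h, against 8.47% and 14.2% of tested genes. Hmox1, the haem oxygenase, rose by 1.76 ± 0.22 at 2i 24 h (adjusted p = 5.7e-07). Of 5 p53 targets, which include Sesn2, 0 rose and 1 fell (Cdkn1a) at 2i 24 h.

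As a description over the 31 libraries, which share their time courses, the members whose log2(CPM + 1) ran most like that of Asns were Slc7a1 (Pearson r = 0.737), Nupr1 (0.578), Cth (0.573), Shmt2 (0.567) and Iars (0.554). Atf4 itself had r = 0.393, Trib3 0.017, Ddit3 -0.269 and Ddit4 -0.502. Among all tested genes the most alike were Gstm2 (0.85), Gstm3 (0.847), Atp1b1 (0.841), Pla2g4e (0.841) and Bcat1 (0.84). Bcat1, a branched-chain transaminase on the list of further response genes, fell at 2iL 72 h (-1.65 ± 0.20, adjusted p = 1.38e-07).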

How the data were processed

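Poly(A) RNA of 32 libraries was read from the 3′ ends of transcripts (NEGEDIA Digital mRNAseq, per the labels). The authors deposited counts, whole numbers of reads per Ensembl gene, with bcl2fastq, STAR 2.6.0a, HTSeq and the mouse build mm10 named in the submitters' processing notes. The annotation release and strand setting are not given in the sources used here. The 5 summary lines of each file, which name no gene, were left out. Unique reads outside genes or in more than 1 gene were 23.81% to 55.57%. This share was 30.85% and 46.43% at 2i 0 h, and 53.85% and 55.57% at 2i 84 h. In the 2iL course it was 47.05% and 41.18% at 0 h, and 53.98% and 50.44% at 96 h. Its part in the results was not tested. Symbols came from GENCODE M21. The shallow library (7298 counts) was left out, and groups were read from the labels.

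The counts of 31 libraries were fitted with edgeR 4.0.16 in R 4.3.3 (TMM, filterByExpr, glmQLFit and glmQLFTest, 1 coefficient a group, 12556 genes, 15 residual degrees of freedom, common dispersion 0.0213). Benjamini-Hochberg adjustment ran over the 12556 genes, and an adjusted p under 0.05 was called. All comparisons of a course share its 0 h libraries. Levels are TMM-normalised CPM of 3′ reads and are not compared between genes. Depth limits the genes at a few CPM, where 3 counts is the floor, and floors cover counting error only. Alternatives were DESeq2 1.42.0, RLE factors, no filter, the shallow library kept, a replicate block, each library left out, the groups compared alone, and the fit without the 4 libraries that stood apart. The comparisons at 48, 60 and 84 h and at 2iL 96 h were added after seeing the data.

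The members and lists were chosen with earlier results of these data known. Members are counted by direction in each comparison reported at a single time, and by role in some. Counts at 36 h, and those of the differences between courses at 36, 48, 60 and 84 h, are not given. Values by library are given for members with the largest called changes of their role and for Atf4, Ddit3, Asns, Psat1, Slc7a11 and Aars in any case. Promoter sequences are from RefSeq (GRCm38.p6).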

Additional observations from a re-analysis of the deposited data

Results flagged for a closer look

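The changes from 0 h of 10 members at 24 h and of 5 members at 72 h differed between the courses in a direct test of the difference (edgeR quasi-likelihood test, adjusted over all tested genes). Values are the log2 change in the 2iL course minus that in the 2i course, each relative to its own 0 h libraries, whose levels differ for several of these genes. Among the regulators at 24 h the difference was -1.29 for Atf4, -2.19 for Atf5, -2.12 for Ddit3, -2.51 for Trib3, -3.77 for Nupr1 and 0.88 for Sesn2. For the serine and one-carbon genes it was -1.22 for Psat1 and -1.65 for Mthfd2, and for the synthetases -0.79 for Gars and -0.69 for Nars. At 72 h it was -1.46 for Atf5, -2.20 for Ddit3, -1.65 for Nupr1, 1.13 for Sesn2 and 1.89 for Slc7a3. The 24 h calls were lost under 13 of 15 alternatives for Sesn2, 9 each for Gars and Nars and 1 for Ddit3. Those at 72 h were lost under 8 of 15 for Slc7a3, 2 for Nupr1 and 1 for Atf5. That of Nupr1 was lost without the first 2i 0 h library or the second 2i 72 h library. The other calls were kept under every alternative.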

How the results depend on the processing

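No called change of a member reversed its direction under any alternative. Of 161 calls in the 15 comparisons DESeq2 lost 21, no filter 18, keeping the shallow library 12, RLE factors 6, the replicate block 4 and the fit without the 4 libraries that stood apart 5, and comparing groups alone lost 5 of 159. Phgdh at 2i 12 h and Slc7a11 at 2i 24 h were not tested with the groups compared alone. Without those 4 libraries 22 members were called at 0 h (10 in the fit reported), 15 at 2i 48 h (9), 17 at 2i 60 h (11), 11 at 2iL 24 h (6), 19 at 2iL 48 h (11) and 17 in the difference at 24 h (10). With groups compared alone, 23 were called at 0 h, 15 at 2i 48 h, 11 at 2iL 24 h and 8 in the difference at 72 h (5). The cause was not tested. Over all tested genes the count at 0 h was 1663 and 1984 under these 2 alternatives (1004 as reported), in the difference at 24 h 838 and 762 (387), and in the difference at 72 h 2070 and 2374 (1231). At 2iL 24 h it was 2423 without the 4 libraries (1452), and at 2i 24 h 3553 and at 2iL 48 h 2307 with groups alone (2175 and 3648).

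With 1 library left out at a time the counts were 6 to 7 at 0 h, 3 to 4 at 2i 12 h, 6 to 16 at 2i 24 h, 6 to 8 at 2i 48 h, 7 to 8 at 2i 60 h, 5 to 8 at 2i 72 h, 7 to 9 at 2i 84 h, 2 to 5 at 2iL 24 h, 8 to 13 at 2iL 48 h, 8 to 9 at 2iL 60 h, 7 to 9 at 2iL 72 h, 11 to 16 at 2iL 84 h and 10 to 12 at 2iL 96 h. They were 6 to 8 and 2 to 5 for the differences at 24 and 72 h, and 24 to 28 (2i), 23 to 28 (2iL) and 17 to 25 (difference) for the joint tests. Where 1 library is left in a group, it is assumed to vary like the others. The labels state no pairing of same-numbered libraries. Over 105 pairs of 15 groups the median correlation of their deviations was 0.006 (-0.385 to 0.422), and 10 exceeded 0.1. This median cannot show whether some groups shared a batch. With the replicate block the counts were 10 at 0 h, 5, 19, 9, 11, 9 and 11 in the 2i course, 6, 11, 14, 12, 15 and 12 in the 2iL course, 9 and 5 for the differences, and 28, 26 and 23 jointly. Depth limits Chac1, Phgdh and Slc7a11, whose 0 h groups held few counts. DESeq2 gives no joint value here.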
